A study of Caenorhabditis elegans with 6 samples.

Results

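The transthyretin-related genes of *Caenorhabditis elegans* form a large family whose symbols are ttr followed by a number. All genes of the count table whose WormBase symbol has that form were taken, which gave 58 genes of 46748 features. Proteins of this family carry a domain that resembles transthyretin, the vertebrate carrier of thyroid hormone and retinol-binding protein, and most are small and predicted to be secreted. Few have a known task. TTR-52 is a secreted bridge between phosphatidylserine on dying cells and the engulfment receptor CED-1, and TTR-33 has been linked to the resistance of dopaminergic neurons to oxidative stress. Most other members are known by their sequence alone.

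RNA was sequenced from whole hermaphrodites of N2, the wild-type laboratory strain, at an age of 5 days, in 6 libraries. The perturbation label of 3 libraries is Y6B3B.9, a gene name, and that of the other 3 is L4440, a plasmid that serves as the vector, and when empty as the control, in feeding RNAi. Strain, tissue, sex and age were the same for all 6. The labels do not say how Y6B3B.9 was perturbed or whether libraries came from separate cultures, so p-values measure the spread between these libraries, which may be technical. Reads of Y6B3B.9 numbered 1057, 1211 and 969 where it is the label and 578, 557 and 666 where L4440 is, so its counted level was higher and not lower there (log2 change 0.65, SE 0.074, edgeR adjusted p = 1.26e-06). An exact permutation test on its levels gave p = 0.1, the smallest value that 3 against 3 libraries allow. Lower log2 changes than that of Y6B3B.9 were found in 63.0% of tested genes. Below, "rose", "higher" and "lower" therefore describe the libraries labelled Y6B3B.9 relative to those labelled L4440, and say nothing of the direction of the perturbation.

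Between 23103541 and 32012257 reads per library were assigned to genes. Levels are given as CPM, a read count relative to library size, with TMM factors, which adjust library sizes on the assumption that most genes do not differ between libraries. The factors were 1.11, 1.1 and 1.1 under Y6B3B.9 and 0.908, 0.895 and 0.91 under L4440. Tests are edgeR's quasi-likelihood test with Benjamini-Hochberg adjustment over all 14265 genes tested, with a threshold of 0.05. Most of the transcriptome passed it: 84.1% of tested genes were called, 46.4% as higher and 37.7% as lower, with a median log2 change of 0.22. The assumption behind the TMM factors is therefore in doubt here. With DESeq2's size factors as the scaling the median shifted by -0.15, and with unadjusted library totals by 0.29.

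Of the 58 ttr genes, 47 had enough reads to be tested and 11 had not. Among the 47, 44 rose, 1 fell (ttr-50) and 2 were not called (ttr-53 and ttr-10). The share that rose was 93.6%, beside 46.4% of all tested genes, and the median log2 change was 0.93 beside 0.22. A called rise of at least 2-fold was reached by 19 members and a called fall of that size by ttr-50, with 23.6% and 10.2% of all tested genes as background. None of the 47 reached 4-fold in either direction. In all 47 the labels were separated, with no overlap of their libraries, 45 lying higher and 2 lower (ttr-50, and ttr-53, whose sign turned with library totals), and 85.4% of all tested genes were separated likewise. At least 10 reads in every library were found for 46 of the 47, so their testing did not rest on the higher label. The exception was ttr-28, with as few as 6 reads in a library labelled L4440.

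These genes are short, and log2 changes in these libraries followed gene length. The median length of tested ttr genes, as implied by the ratio of counts to RPKM (reads relative to gene length and library size), was 561 bases, against 1302 for all tested genes. From the shortest to the longest of 10 equal groups of tested genes, the median log2 change went from 0.84 to -0.53. Among 800 other tested genes between 513 and 639 bases long, the middle range of the ttr genes, the median log2 change was 0.64 and 60.5% rose. The 22 ttr genes in the shortest of the 10 groups had a median of 0.92, close to the 0.84 of that whole group. All 22 rose, beside 66.2% of the group, which runs from 20 to 559 bases. The 21 in the next group, from 560 to 760 bases, had 0.98 against 0.54, and all but ttr-10 rose, beside 56.6% of that group. When a smooth trend of log2 change on length was removed in the fit, 26 ttr genes rose and 3 fell (ttr-50, ttr-42 and ttr-53), with a median of 0.31 beside -0.03 for all tested genes. The background after this step was 37.0% higher and 44.0% lower. Of the 44 members that rose before it, 26 still did, 17 were no longer called and 1 (ttr-42) was called lower.

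**Figure D1:**
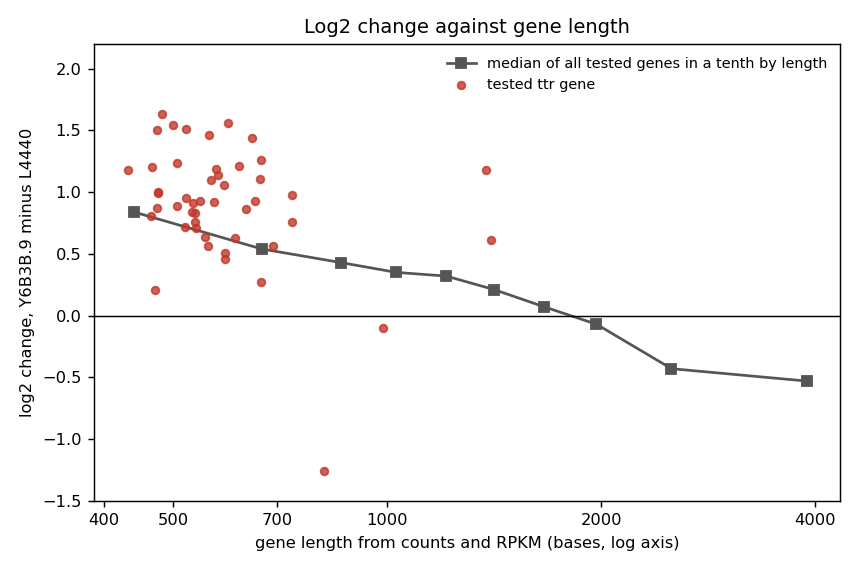
Log2 change (vertical axis, libraries labelled Y6B3B.9 minus L4440) against gene length in bases (horizontal log axis) for the 47 tested ttr genes (red points), with the median of all tested genes in 10 equal groups by length (grey squares). Nearly all ttr genes lie at the short end, where the grey line is at 0.84 and 0.54, and ttr-50 is the point at -1.26.

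Together the ttr genes took 0.531%, 0.592% and 0.614% of the counted reads under the label Y6B3B.9 and 0.219%, 0.22% and 0.218% under L4440. Their summed level was 4781, 5369 and 5584 CPM under the label Y6B3B.9 and 2408, 2461 and 2394 CPM under L4440. The label means were 5245 ± 415 and 2421 ± 35.2 CPM (SD, n = 3 each), a ratio of 2.17, and the libraries of the labels did not overlap. Scaled instead by DESeq2's size factors the ratio was 1.95, and by library totals alone 2.65.

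The family's reads were held by few genes. The 5 members with the most reads, namely ttr-51, ttr-45, ttr-15, ttr-2 and ttr-46, held between 71.3% and 73.3% of the family's reads under Y6B3B.9 and between 63.4% and 64.5% under L4440. The share of ttr-51 alone was 33.9%, 34.2% and 35.2% against 24.5%, 24.4% and 23.8%. Without ttr-51 the ratio of summed levels was 1.87, and over the 53 genes outside the top 5 it was 1.68. The summed rise was thus larger over the top 5 together, at a ratio of 2.44, but was also present in the remainder. Of the 5, ttr-51, ttr-45 and ttr-46 had log2 changes above the family median of 0.93. ttr-15 (0.63) and ttr-2 (0.83) lay below it.

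**Figure D2:**
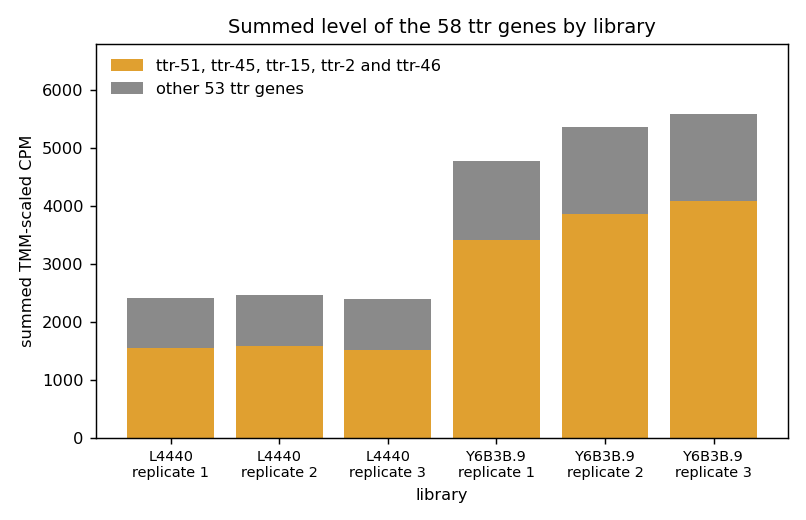
Summed TMM-scaled CPM of the 58 ttr genes (vertical axis) in each library (horizontal axis), divided into the 5 members with the most reads (yellow) and the other 53 (grey). The 3 libraries labelled Y6B3B.9 stand at 4781 to 5584 CPM and the 3 labelled L4440 at 2394 to 2461 CPM.

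ttr-51 (WBGene00010440) was the most abundant member and also had the largest log2 change. It lies on the minus strand of chromosome IV at 13250655 to 13252311 in build WBcel235 and is annotated with 2 exons and 414 coding bases. Its level was 1619, 1836 and 1968 CPM under Y6B3B.9 and 589, 599 and 569 CPM under L4440. Every library of the first label was well above every library of the second, a fitted fold of 3.09 (log2 change 1.63, SE 0.068, edgeR adjusted p = 3.62e-11). Lower log2 changes than this were found in 92.1% of tested genes. With the length trend removed its log2 change was 0.94. JC8.7, which shares 45 exonic bases with it on the other strand, went the other way (log2 change -0.92, SE 0.063).

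ttr-45 (WBGene00044737) is the neighbour of ttr-51. It starts at 13254225 on the plus strand, with 1913 bases between the genes, which are transcribed away from each other. It stood at 569, 644 and 687 CPM under Y6B3B.9 and 222, 231 and 220 CPM under L4440. The rise, by log2 1.5 (SE 0.065, edgeR adjusted p = 4.83e-11), was near that of ttr-51, and remained called at 0.80 with the length trend removed. In CPM per kilobase of gene length, the scale on which genes can be compared with each other, ttr-51 and ttr-45 were the top pair under Y6B3B.9, at 3743 ± 364 and 1334 ± 126 (SD, n = 3). Under L4440 ttr-51 also led, at 1213 ± 32.2, but ttr-45, at 472 ± 11.8, came after ttr-15 (519 ± 9.33) and ttr-2 (496 ± 9.26). Per kilobase, ttr-15 and ttr-2 differed by more than their SDs under L4440 and by about their SDs under Y6B3B.9, at 805 ± 87.2 and 884 ± 53.6. These values use the lengths implied by the deposited values, 475 bases for ttr-45, 536 for ttr-2 and 611 for ttr-15. Their spliced lengths in the annotation used here are 679, 496 and 609 bases. The order of these genes below ttr-51 depends on which length is taken, and the SDs do not include this.

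ttr-2 and ttr-15, both on chromosome III, were abundant with smaller log2 changes. ttr-2 stood at 441, 486 and 494 CPM under Y6B3B.9 and 261, 271 and 266 CPM under L4440, a log2 change of 0.83 (SE 0.054). ttr-15 stood at 431, 520 and 526 CPM against 317, 322 and 311 CPM, a log2 change of 0.63 (SE 0.068). Neither gene's libraries overlapped between labels, and both were called (edgeR adjusted p = 2.28e-09 and 5.98e-07). With the length trend removed ttr-2 remained called at 0.20, while ttr-15 did not, at 0.08 (edgeR adjusted p = 0.281).

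The next members by level per length were ttr-46, ttr-16, ttr-41 and ttr-47. ttr-46 had 347, 375 and 417 CPM under Y6B3B.9 and 165, 160 and 152 CPM under L4440 (log2 change 1.26, SE 0.064). ttr-41 had 186, 197 and 214 CPM against 83.5, 86.0 and 82.5 CPM (log2 change 1.24, SE 0.055). In both genes every library labelled Y6B3B.9 was at or above 2 times the level of every library labelled L4440. ttr-16 had 207.6, 240.1 and 233.2 CPM against 122.4, 140.8 and 138.6 CPM (log2 change 0.76, SE 0.065). ttr-47 had 87.9, 98.4 and 97.1 CPM against 46.6, 48.7 and 51 CPM (log2 change 0.95, SE 0.057). All 4 were called with edgeR adjusted p between 5.99e-11 and 4.99e-08, and ttr-16 was the one not called after removal of the length trend, at 0.13. ttr-16 shares 209 exonic bases with lin-3, the epidermal growth factor-like ligand gene on the other strand, which fell (log2 change -1.09, SE 0.051).

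**Figure D3:**
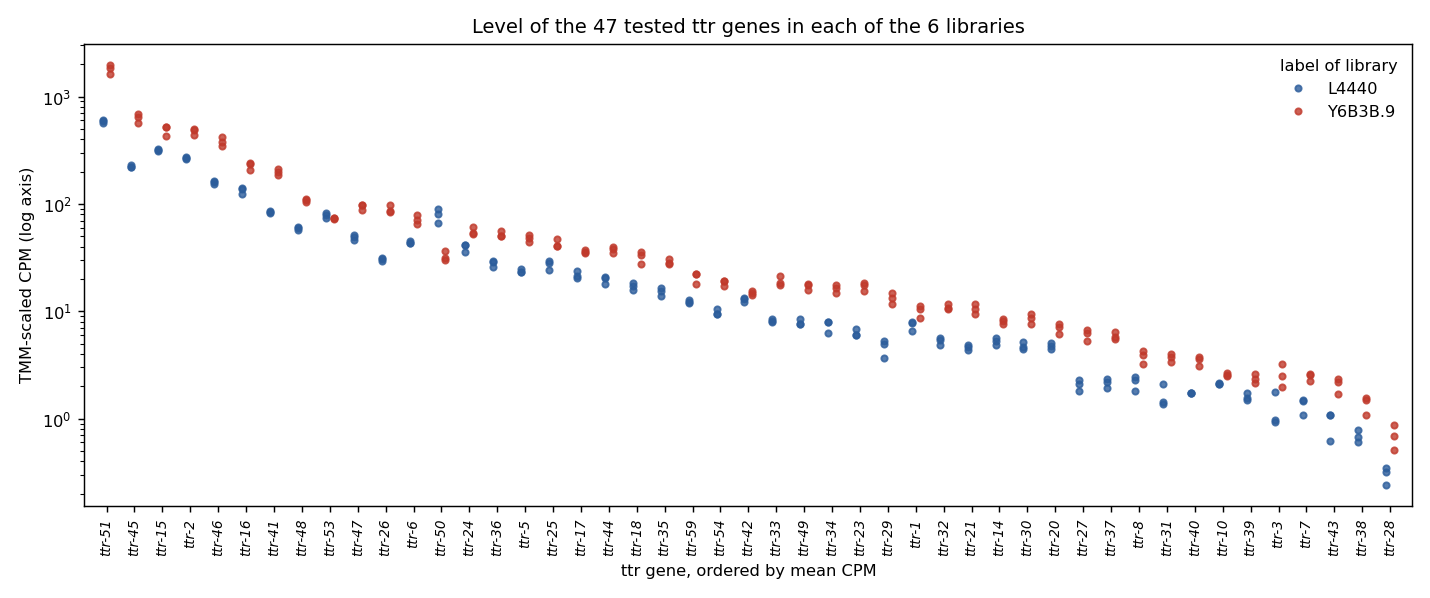
TMM-scaled CPM (vertical log axis) of the 47 tested ttr genes (horizontal axis, ordered by mean level) in the 3 libraries labelled Y6B3B.9 (red) and the 3 labelled L4440 (blue), 1 point per library. The red points lie above the blue ones except in ttr-50 and ttr-53 (the latter turned with library totals), from ttr-51 at up to 1968 CPM to genes below 1 CPM.

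Other large changes were seen in members of middling level. ttr-26, on chromosome V, rose from 30.4, 29.1 and 31.2 CPM under L4440 to 83.3, 97.7 and 86.8 CPM under Y6B3B.9. Its log2 change was 1.56 (SE 0.064; adjusted p = 3.27e-11 in edgeR), and after removal of the length trend its 0.99 was the largest value of any member. ttr-29 stood at 11.7, 13.4 and 14.8 CPM under Y6B3B.9 and 5.29, 3.70 and 4.91 CPM under L4440 (log2 change 1.51, SE 0.13). ttr-23 stood at 15.4, 17.5 and 18.4 CPM against 6.85, 6.07 and 6.05 CPM (log2 change 1.44, SE 0.099). The libraries of the labels were far apart in all 3 genes, and the calls held without the length trend. No member reached a 2-fold rise after that step.

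ttr-33, the member linked to dopaminergic neurons, rose as well. Its level was 17.4, 18.3 and 21.1 CPM under Y6B3B.9 and 8.53, 7.88 and 8.04 CPM under L4440. The log2 change was 1.21 (SE 0.093, edgeR adjusted p = 1.59e-08), or 0.67 with the length trend removed, still called. The gene shares 42 exonic bases with txt-5 on the same strand, which had far fewer reads (182 over the 6 libraries, against 2349 for ttr-33). Genes of dopamine synthesis and transport, by comparison, were called in 2 of 5 cases, both higher, with 84.1% of all tested genes called and 46.4% higher as background. Of these, bas-1 (aromatic amino acid decarboxylase, log2 change 0.68) and cat-4 (which makes the cofactor of tyrosine hydroxylase, 0.47) rose, the latter not called with the length trend removed (0.10). The genes that mark dopaminergic neurons most closely had low counts and were not called, with log2 changes of -0.48 (SE 0.29) for the tyrosine hydroxylase gene cat-2 and -0.11 (SE 0.31) for the dopamine transporter gene dat-1. The vesicular transporter gene cat-1 had 0.52 (SE 0.37).

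The remaining members with a rise of at least 2-fold were ttr-27 (log2 change 1.54), ttr-37 (1.46), ttr-28 (1.20), ttr-31 (1.19), ttr-43 (1.18), ttr-21 (1.18), ttr-34 (1.14), ttr-49 (1.11), ttr-3 (1.10), ttr-32 (1.06) and ttr-5 (1.00). ttr-28 was the lowest of all tested members, with 88 reads over the 6 libraries and 0.690 ± 0.179 against 0.302 ± 0.0544 CPM (SD, n = 3), and its standard error of 0.32 was the largest. ttr-28, ttr-43 and ttr-3 were not called after removal of the length trend. For ttr-21 the deposited values imply a length of 1376 bases, against 521 spliced bases in the annotation used here, so its count may cover sequence outside the annotated gene. Smaller rises, with log2 changes between 0.21 and 0.99, made up the other 25 of the 44.

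**Figure D4:**
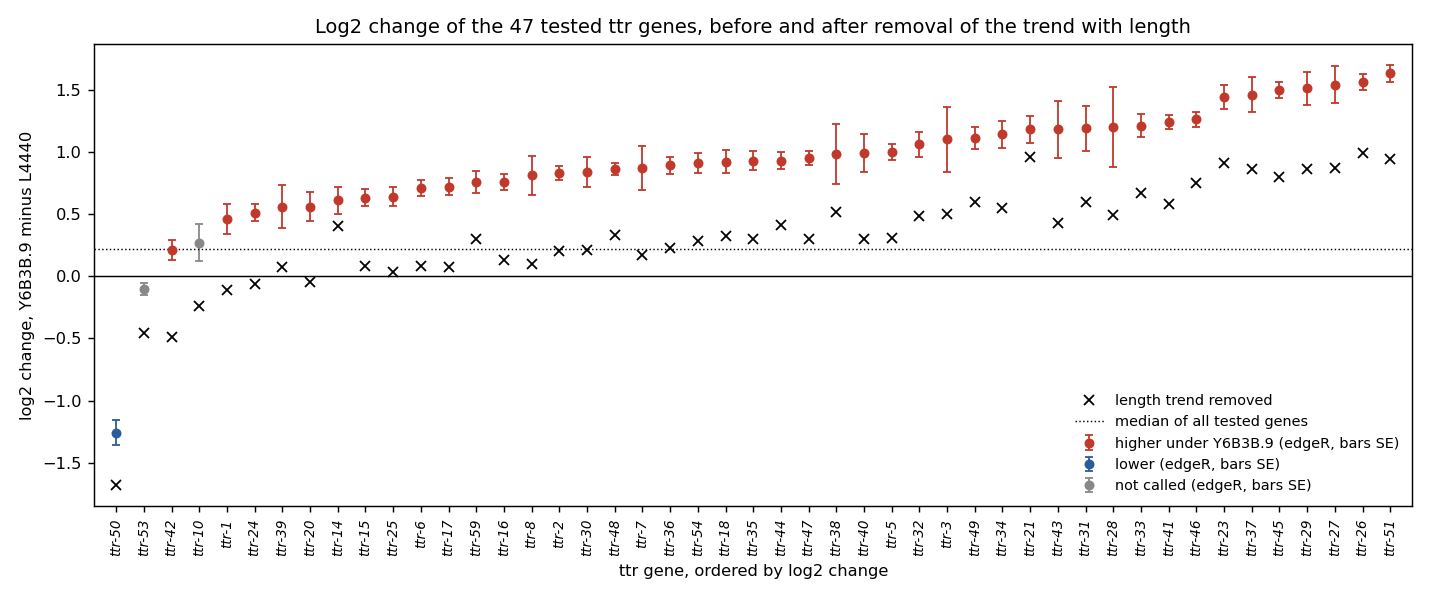
Log2 change (vertical axis, Y6B3B.9 minus L4440) of the 47 tested ttr genes (horizontal axis, in order), with SE bars, coloured by the edgeR call, and the same with the length trend removed (crosses). Changes run from -1.26 for ttr-50 to 1.63 for ttr-51, and the crosses run from -1.68 to 0.99.

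ttr-50 was the exception to the family's direction. It had 36.6, 31.6 and 30.2 CPM under Y6B3B.9 and 89.1, 66.7 and 80.5 CPM under L4440. The highest library of the first label was thus below the lowest of the second, a level 2.4-fold higher under L4440 (log2 change -1.26, SE 0.10, edgeR adjusted p = 4.70e-07). The log2 change was between -1.68 and -0.97 over all alternatives and always called. With 639 coding bases it has a longer coding sequence than any other member apart from ttr-14. By the implied lengths its level per length was the eighth highest under L4440. It lies on chromosome IV at 11640047 to 11641015 on the minus strand and shares 51 exonic bases with rbm-17 on the other strand. rbm-17, named for an RNA-binding motif, fell too (log2 change -0.86, SE 0.052, edgeR adjusted p = 1.12e-09). Strand is not recorded by the library kit, and reads within the shared bases cannot be assigned to either gene. In all, 13 tested members share exonic bases with another gene, the others being ttr-7, ttr-8, ttr-14, ttr-16, ttr-32, ttr-33, ttr-39, ttr-42, ttr-43, ttr-44, ttr-47 and ttr-51. In ttr-39 and ttr-32 the partner on the other strand had more reads and fell: ndc-80 with 35300 reads beside 340 (log2 change -0.65), and R13A5.7 with 3889 beside 1425 (-1.23). In ttr-7 the partner on the other strand, best-17, also had more reads, 485 beside 328, but rose (0.75, SE 0.15). It shares 74 exonic bases with ttr-7, which had a log2 change of 0.87 (SE 0.18). The part of shared reads in the rise of ttr-7 was not tested.

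ttr-53 and ttr-10 were the tested members without a call. ttr-53 had 72.2, 74.2 and 73.2 CPM under Y6B3B.9 and 74.7, 81.8 and 79.1 CPM under L4440, with -0.10 as log2 change (SE 0.049, edgeR adjusted p = 0.0653). Its sign depended on the scaling: it was 0.19 with library totals and -0.25 with DESeq2's size factors, and called in both. It was also called lower with no filter (-0.20), in the DESeq2 Wald test (-0.32) and with the length trend removed (-0.46, edgeR adjusted p = 5.49e-07). Without L4440 replicate 1 it was called at -0.15. ttr-10 had 2.55, 2.64 and 2.48 CPM against 2.12, 2.09 and 2.16 CPM. Its 6 libraries were separated, at log2 0.27 (SE 0.15, edgeR adjusted p = 0.106), and it was called with library totals (0.56) and when genes had to reach 1 CPM in 3 libraries (0.36).

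The smallest called rise was that of ttr-42, with 15.4, 14.9 and 14.3 CPM against 13.3, 13.1 and 12.3 CPM. Its log2 change of 0.21 (SE 0.078, edgeR adjusted p = 0.0237) was at the median of all tested genes, 49.7% of which lay below it. The call was lost without either Y6B3B.9 replicate 1 (0.17) or replicate 2 (0.20), without either L4440 replicate 2 (0.19) or replicate 3 (0.16), and with DESeq2's size factors. With the length trend removed it was called lower, at -0.49 (edgeR adjusted p = 3.77e-05). Its direction thus depended on the processing.

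Small rises were also measured in ttr-1, ttr-24, ttr-20, ttr-14 and ttr-25. ttr-24 had 53.8, 60.8 and 52.9 CPM under Y6B3B.9 and 35.3, 41 and 41 CPM under L4440 (log2 change 0.51, SE 0.070). ttr-25 had 40.4, 46.8 and 40.8 CPM against 24.4, 29.4 and 28.2 CPM (log2 change 0.64, SE 0.078). These lie next to each other, and the libraries of the labels did not overlap in either. ttr-1 had 8.64, 11.3 and 10.6 CPM against 6.53, 7.71 and 7.90 CPM (log2 change 0.46, SE 0.12). ttr-20 had 7.17, 7.64 and 6.18 CPM against 4.48, 4.74 and 5.05 CPM (log2 change 0.56, SE 0.12). ttr-14, the member with the longest coding sequence (1218 bases) and the most exons (9), had 8.16, 8.45 and 7.59 CPM against 5.33, 4.82 and 5.67 CPM (log2 change 0.61, SE 0.11). All 5 were called by edgeR, with adjusted p between 2.32e-06 and 0.00246. After removal of the length trend ttr-14 alone of the 5 remained called, at 0.40, and the other 4 lay between -0.11 and 0.03.

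Many ttr genes lie side by side. By start positions within 10 kb of each other, 29 of the 58 fell into 12 groups of neighbours, of which 10 had tested members. Some neighbours had similar log2 changes. Whether neighbours were more alike than other members was not tested, and the quartiles over all tested members were 0.72 and 1.19. ttr-16 and ttr-17 had 0.76 (SE 0.065) and 0.72 (SE 0.068), and ttr-36 and ttr-35 had 0.89 (SE 0.068) and 0.93 (SE 0.078). ttr-59 and ttr-30 had 0.76 (SE 0.089) and 0.84 (SE 0.12). On chromosome V ttr-27, ttr-28 and ttr-29 had 1.54, 1.20 and 1.51, with the low count of ttr-28 giving it the widest error.

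Other groups held unlike values. ttr-26 (1.56, SE 0.064) stood apart from the adjoining ttr-25 (0.64, SE 0.078) and ttr-24 (0.51, SE 0.070), although only 658 bases separate it from ttr-25. ttr-54 rose by log2 0.91 (SE 0.084) while ttr-53, at 1266 bases from it on the same strand, was at -0.10 (SE 0.049). ttr-3, ttr-2 and ttr-1 had 1.10 (SE 0.26), 0.83 (SE 0.054) and 0.46 (SE 0.12). Differences between genes were not tested and are given as values with their errors.

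**Figure D5:**
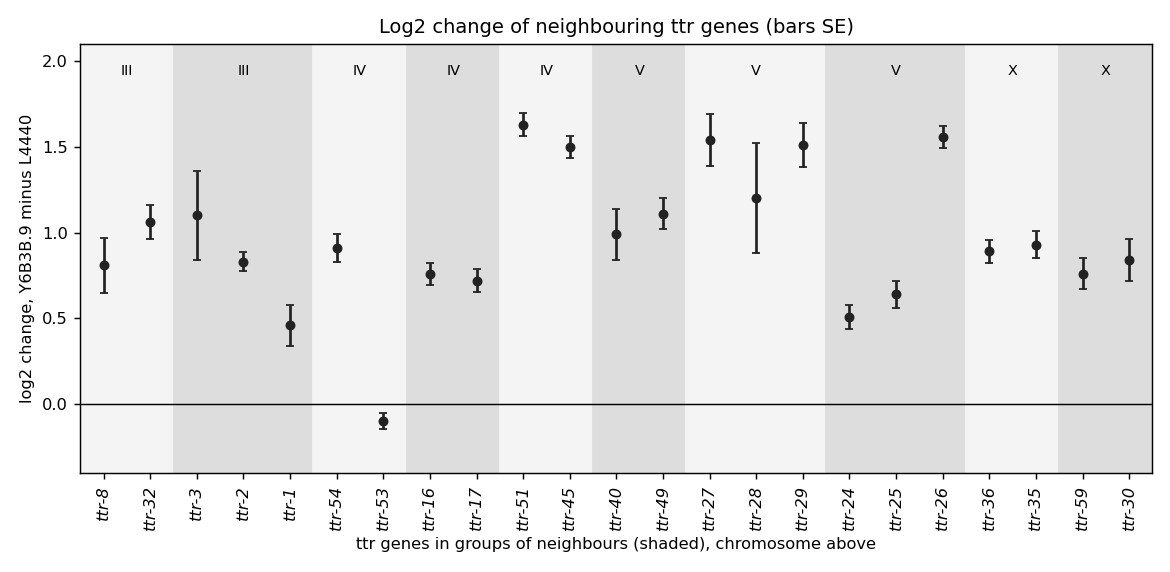
Log2 change with SE bars (vertical axis, Y6B3B.9 minus L4440) of tested ttr genes that lie within 10 kb of another, in shaded groups along the horizontal axis with the chromosome above. ttr-51 and ttr-45 stand highest as a pair at 1.63 and 1.5, and ttr-26 and ttr-53 differ from their neighbours.

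By chromosome, tested ttr genes were spread over II to X, and 28 of the 47 lie on V or X. Over all tested genes the median log2 change was also higher on V (0.55) and X (0.61) than on II (0.08), III (-0.11) or IV (0.26). The ttr genes lay above these values on each: 1.18 over 16 genes on V, 0.88 over 12 on X, 1.08 over 2 on II, 0.85 over 8 on III and 0.72 over 9 on IV. The chromosome medians were not matched for length: all tested genes had a median of 1302 bases and the tested ttr genes 561. The 3 members on chromosome I were not tested. Across the 47 tested members, which share the same libraries, Spearman's rho of log2 change was -0.25 with length and -0.05 with mean CPM.

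The 11 members without a test had between 1 and 34 reads over the 6 libraries, 99 reads in all, and differences in their levels were not tested. They were ttr-9, ttr-11, ttr-12, ttr-13, ttr-19, ttr-22, ttr-52, ttr-55, ttr-56, ttr-57 and ttr-58. ttr-55, ttr-56 and ttr-58 form the group of neighbours on chromosome I, and ttr-11, ttr-57 and ttr-12 form one on V, so that both groups were near silent as a whole. ttr-22 had the most reads, 9, 6 and 10 under Y6B3B.9 and 4, 3 and 2 under L4440. ttr-11 had 2, 2 and 0 reads against 0, 1 and 0. The engulfment bridge gene ttr-52 had 3, 2 and 2 reads under Y6B3B.9 and 0 in each library labelled L4440. These 7 reads are too few for a fold.

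Listed genes of the engulfment of dying cells, the process in which ttr-52 acts, were mostly lower. The list covers engulfment broadly and is not limited to partners of TTR-52. Of 14 such genes, all tested, 9 fell, 2 rose and 3 were not called, with a median log2 change of -0.49 and with 37.7% of all tested genes lower as background. The largest falls were those of ced-7, an ABC transporter of engulfment (log2 change -1.25, SE 0.057), and tat-1, the aminophospholipid flippase that keeps phosphatidylserine inside the membrane (-0.93, SE 0.052). ced-5, a DOCK-type activator of CED-10, fell by 0.84 on the log2 scale (SE 0.055) and dyn-1, the dynamin gene, fell by 0.60 (SE 0.044). The receptor gene ced-1 had 123 ± 8.75 against 198 ± 3.15 CPM (SD, n = 3; log2 change -0.69, SE 0.054, edgeR adjusted p = 1.98e-08). chat-1, encoding the chaperone of TAT-1, had a log2 change of 0.16, between -0.06 and 0.45 over the alternatives, and eff-1, the cell fusion gene, had 0.49 (SE 0.20) with 343 reads in all. The lipid-binding protein gene nrf-5 (0.01, SE 0.069), ced-10 (-0.04, SE 0.060) and the integrin gene ina-1 (0.06, SE 0.056) were not called. With the length trend removed, 10 of the 14 fell, 2 rose and 2 were not called, with a median of -0.37 and with 44.0% of all tested genes lower. ced-7 was then at -0.83, tat-1 at -0.54, ced-5 at -0.42, ced-1 at -0.32 and dyn-1 at -0.29, all still called. ced-10 was called lower after this step (-0.18) and ina-1 higher (0.41), while chat-1 was no longer called (-0.04).

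R09H10.3, a worm gene outside the ttr family that encodes a transthyretin-like protein related to hydrolases of uric acid breakdown, rose from 28.1 ± 1.96 to 55.7 ± 2.61 CPM (SD, n = 3; log2 change 0.98, SE 0.063, edgeR adjusted p = 2.08e-09). It was at 0.38 with the length trend removed, still called. ZK697.8, its relative, had 1 read under each label. The xanthine dehydrogenase gene xdh-1, which acts upstream in that pathway, was lower at -0.38 (SE 0.16, edgeR adjusted p = 0.0456), but its libraries overlapped between the labels (15.1, 12.4 and 8.97 against 18.2, 14.8 and 14.9 CPM), and it was at -0.01 and not called with the length trend removed.

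Markers of tissues moved between the labels too, beside 46.4% of all tested genes higher and 37.7% lower. In bulk RNA of whole worms, fewer cells of a type and less RNA per cell cannot be told apart. All 8 germline and oocyte markers fell, with summed levels of 5104 to 5278 CPM under Y6B3B.9 and 10626 to 10910 CPM under L4440. All 6 hypodermis and cuticle markers rose, from 43.1 to 50.1 CPM in sum under L4440 to 98.4 to 99.2 CPM under Y6B3B.9. Intestine markers rose in 5 of 6 cases, with sums of 47600 to 50082 CPM against 35001 to 36699 CPM. The yolk protein genes vit-2 and vit-6 held at least 99.1% of these sums, and the other 4 summed to 398.8 to 409.3 against 205.4 to 216.9 CPM. Pharyngeal muscle markers rose in 4 of 4 (84.1 to 94.2 against 51.1 to 56.1 CPM) and neuron markers in 4 of 6 with 1 lower (306 to 340 against 252 to 267 CPM). Both tested glia markers rose (9.91 to 13.3 against 3.68 to 4.67 CPM for all 3 in sum), as did both coelomocyte markers (10.03 to 12.83 against 7.93 to 9.07 CPM) and phat-3, the 1 tested of 4 pharyngeal gland markers (4.77 to 6.77 against 1.84 to 2.89 CPM for all 4). Body wall muscle markers divided, with 1 higher, 1 lower and 3 not called of 5 (607 to 663 against 469 to 627 CPM), and 2 of 5 sperm markers rose, a share near the background (7.49 to 9.60 against 2.61 to 3.40 CPM). Most of that difference was in spe-41, without which the sperm sums were 2.085 to 2.219 against 1.326 to 1.922 CPM. With the length trend removed, 37.0% of all tested genes were higher and 44.0% lower. Body wall muscle markers were then 3 higher, 0 lower and 2 not called of 5. Neuron markers were 4 higher and 2 lower of 6, and coelomocyte markers 1 higher and 1 not called. In the other marker lists the numbers called in each direction stayed the same. Each of these markers had reads over the 6 libraries together, but phat-1 and phat-5 had 0 reads in at least 1 library labelled L4440. The part of these shifts in the levels of ttr genes was not tested.

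Among the libraries labelled Y6B3B.9, replicate 1 gave the lowest level of its label in 33 of the 47 tested ttr genes (70.2%), against 34.4% of all tested genes. Without that library the ratio of summed levels was 2.26 and 43 ttr genes rose.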

How the data were processed

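For the 6 libraries, unnormalized counts per gene and RPKM values were deposited by the authors. Tools named in the submitters' processing notes are featureCounts 1.4.6-p4, STAR 2.4.1d and bcl2fastq 1.8.4, with build WBcel235, and per the labels' protocols the kit was TruSeq RNA v2, which records no strand. The sources used here give no annotation release, options or strand setting, nor the treatment of reads that match several family members. Symbols came by ID for 43693 features and positions from the Ensembl release 115 annotation of the same build.

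In the deposited RPKM values library totals were recycled along the table: 4330 of 4330 genes with at least 1000 reads in every library gave 1 length within 0.1% with recycled totals, and 0 with their own. RPKM served for gene lengths and as an alternative only.

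The count test was edgeR 4.0.16, run in R 4.3.3 (filterByExpr, TMM, glmQLFit with robust=TRUE, glmQLFTest), and standard errors come from the F statistic. A check of its calls on simulated data preceded it, with far fewer genes changed than were called here. That check cannot tell how the scaling and the calls behave when most genes differ. Replicates of a label differed by more than sampling noise (chi-square per degree of freedom 3.79 to 14.0). Replicate numbers follow the order of the records. Alternatives used DESeq2 1.42.0, limma 3.58.1, other scalings and filters, a loess trend on length (span 0.3) and leaving out each library. The members, lists, tests and rule for named genes were chosen with earlier results of these data known. The rule gave values per library for the 8 members highest per length, and among called members with a mean of at least 5 CPM the 8 largest and the 8 smallest log2 changes, besides ttr-52, ttr-33 and ttr-11, and from each list the 4 genes with the smallest p. Members not called, and list genes whose direction held few of the list, were named with their values known. Figures were drawn with matplotlib 3.10.9.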

Additional observations from a re-analysis of the deposited data

How the results depend on the processing

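The number of ttr genes that rose was 44 and lay between 39 and 46 under the alternatives other than removal of the length trend, which gave 26. Their median log2 change of 0.93 was 1.22 with library totals, 0.77 with DESeq2's size factors, 0.83 with no filter, 1.02 with at least 1 CPM in at least 3 libraries, 0.71 with the DESeq2 Wald test, 0.31 with the length trend removed, and 1.11 and 1.05 on log2(RPKM + 0.1) and log2(RPKM + 1). The ratio of summed levels, 2.17, was 2.65 with library totals and 1.95 with DESeq2's size factors. Members that fell numbered 1, but 2 with DESeq2's size factors, with no filter and in the DESeq2 Wald test, and 3 with the length trend removed; leaving out 1 library gave 1 to 2. Leaving out 1 library gave 43 to 44 rises, medians of 0.89 to 0.93 and ratios of 2.1 to 2.26. Called engulfment genes numbered 11, but 5 and 6 on the RPKM scales with pseudocounts of 0.1 and 1. The RPKM values carry the recycled totals described above, with 16.7% of values divided by the total of their own library. Results on the RPKM scales are limited by this. The number of called genes over the whole table was within 1.5 times of 12003 under every alternative run.

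Signs turned with the length trend removed for ttr-1 (-0.11), ttr-10 (-0.24), ttr-20 (-0.0476), ttr-24 (-0.0584) and ttr-42 (-0.49), for ttr-42 in the DESeq2 Wald test (-0.00701), and for ttr-53 with library totals (0.19) and on both RPKM scales (0.0969 and 0.0957). Among the leave-one-out fits, calls changed for ttr-42 and ttr-53 alone. The causes of these changes were not tested. Counts limit what can be said of the 11 members with 34 reads or fewer, and of ttr-28. No paired analysis was possible because the labels give no replicate numbers within groups.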
